A study of Rattus norvegicus with 16 samples.

Results

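The genes described here carry the steps by which a beta cell senses glucose and passes the signal to its neighbours: glucose transport and phosphorylation (Slc2a2, G6pc2), the ATP-sensitive potassium channel (Kcnj11, Abcc8), receptors for incretin hormones and fatty acids (Glp1r, Gipr, Ffar1) and the gap junction (Gjd2). Members were all probe sets that the platform's annotation assigns to 1 of these 8 genes. Of the 15923 probe sets on the array, 8 belonged to 6 of the genes, and all 8 were bright enough to be tested. No probe set of G6pc2 or Ffar1 was found in the annotation, and these 2 genes were not analysed here.

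Isolated rat pancreatic islets formed 4 groups, and their RNA was hybridised to a rat expression array. All islets received an adenovirus at 50 viral particles per cell and were kept for 32 h, either an empty (null) virus or one carrying PPARγ, a nuclear receptor that binds fatty acid derivatives and thiazolidinedione drugs. A further 16 h followed, either in the vehicle alone, 0.004% DMSO, or with a synthetic PPARγ agonist, GW347845, at 200 nM (called the compound below). Thus the controls, too, were infected, and no uninfected islets were analysed here. The vehicle groups held DMSO, and for the compound groups no DMSO share was given in the sources used here. Null virus with vehicle and null virus with compound had 3 arrays each, and PPARγ virus with vehicle and PPARγ virus with compound had 4 each. The replicate 2 columns of the null virus were left out, because both held the same values under conflicting labels. Nothing in the labels tells if the replicates came from separate islet preparations, so p-values measure only the spread between these arrays, which may be technical. Not given in the sources used here were animal strain and age, the promoter of the virus and the species of its PPARγ cDNA.

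In a rat beta cell, glucose enters through the transporter GLUT2, is phosphorylated and metabolised, and the resulting rise in ATP closes the potassium channel, depolarises the membrane and opens calcium channels. Incretin hormones from the gut amplify insulin release through cyclic AMP. Gap junctions of connexin 36 couple neighbouring beta cells, so that their calcium oscillations run together across the islet.

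Promoter sequence was at hand for 5 of the 8 members, 3 of them measured (Slc2a2, Glp1r and Gjd2). The 250 bases before the start of Slc2a2 and Gjd2 are shown because Slc2a2 is a gene in which a PPAR response element has been described, and because Gjd2 was the member with the largest differences between groups. Both are from RefSeq on the GRCr8 build, at chr2:113540120-113540369 on the plus strand for Slc2a2 and chr3:121229368-121229617 on the minus strand for Gjd2. Capitals mark each AGGTCA, a hexamer bound by nuclear receptors such as PPARγ with its partner RXR, and each CANNTG, the E box bound by basic helix-loop-helix factors, with matches sought on both strands.
Slc2a2: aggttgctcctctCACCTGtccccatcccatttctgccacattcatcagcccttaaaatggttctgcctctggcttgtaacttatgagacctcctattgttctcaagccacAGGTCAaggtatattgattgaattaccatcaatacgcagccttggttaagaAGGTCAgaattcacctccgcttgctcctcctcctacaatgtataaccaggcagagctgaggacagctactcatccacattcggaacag
Gjd2: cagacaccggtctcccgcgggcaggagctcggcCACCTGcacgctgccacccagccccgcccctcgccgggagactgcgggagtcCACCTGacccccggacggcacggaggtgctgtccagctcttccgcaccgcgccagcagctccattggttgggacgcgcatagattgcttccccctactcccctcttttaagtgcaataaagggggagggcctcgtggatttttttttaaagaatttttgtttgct
The Slc2a2 window held 2 AGGTCA hexamers, starting at positions -139 and -88 from the gene's start, and 1 E box at -237. Gjd2 had no AGGTCA there and 2 E boxes, at -217 and -165. Over 33469 rat promoters of the same length, 14.1% held AGGTCA and 65.5% held CANNTG. A pair of AGGTCA hexamers 1 base apart on the same strand, the arrangement PPARγ is known to prefer, was found in 17 promoters (0.0508%) and in none of the 5 members at hand. These matches describe letters only, and none was compared with the response element described for Slc2a2. The windows stop at the start of the gene and hold none of the transcribed part.

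Pparg followed the virus labels: it read between 25.6 and 51.4 in the 6 null virus arrays and between 4593 and 6199 in the 8 PPARγ virus arrays. Fabp4, a textbook PPARγ target, had a mean intensity of 572.0 ± 223 (SD, n = 4) with PPARγ virus and compound and 17.0 ± 8.4 (SD, n = 3) with null virus and vehicle. The beta cell hormone gene Ins1 read between 4627 and 7093 on every array. Hormones of non-beta cells varied more: glucagon (Gcg) read 420.8 and 180.8 in the vehicle and compound arrays of PPARγ virus replicate 2, against 1221 to 4192 in the other 12 arrays. Some markers of other cells were never above the limit used for testing, an intensity of 39.3. These were 4 of 11 acinar genes (Cel, Clps, Cpa1 and Prss2) and 1 of 8 duct genes (Muc1). So were 2 of 12 endothelial and stromal genes (Pecam1 and Vwf) and 3 of 12 leukocyte genes (Ptprc, Cd3e and Itgam). The rest passed that limit on at least 1 array. With null virus and vehicle the stromal Vim had a mean of 1496 ± 339 (SD, n = 3) and the leukocyte Fcer1g one of 158.9 ± 35.6 (SD, n = 3). In bulk RNA, fewer cells of a type and less RNA per cell cannot be told apart.

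Vehicle and compound arrays of the same virus and replicate number deviated from their group means together. The correlation of these deviations over all tested probe sets lay between 0.445 and 0.702 in 7 of 7 pairs. Vehicle and compound are therefore also compared within these pairs below.

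None of the 8 member probe sets passed an adjusted p of 0.05 in any of 8 contrasts (limma, Benjamini-Hochberg over 10078 probe sets). Unadjusted limma p-values under 0.05 belonged in every case to Gjd2, in 5 contrasts. Over all 10078 tested probe sets, 446 had such a p for the virus in vehicle, 926 in compound and 1211 averaged over both. For the compound averaged over viruses 174 had one, and for virus and compound together 855. Background calls at an adjusted p of 0.05 were also few. The PPARγ virus against the null virus called 0.0397% of all tested probe sets in vehicle, 0.705% in compound and 1.53% averaged over vehicle and compound. The compound called 0.0% under the null virus, 0.0595% under the PPARγ virus and 0.0198% averaged over viruses. Virus and compound together, called the combined effect, against null virus and vehicle gave 0.665%, and the interaction gave 0.0%. With the 7 pairs as a replicate block, the compound called 40 probe sets in place of 6 under the PPARγ virus, 14 in place of 2 averaged over viruses, and 5 in place of 0 for the interaction, with no member among them. Several contrasts share arrays, so their values for a gene are not independent of each other. At such shares, 0 calls among 8 probe sets do not set the members apart from other genes.

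**Figure D1:**
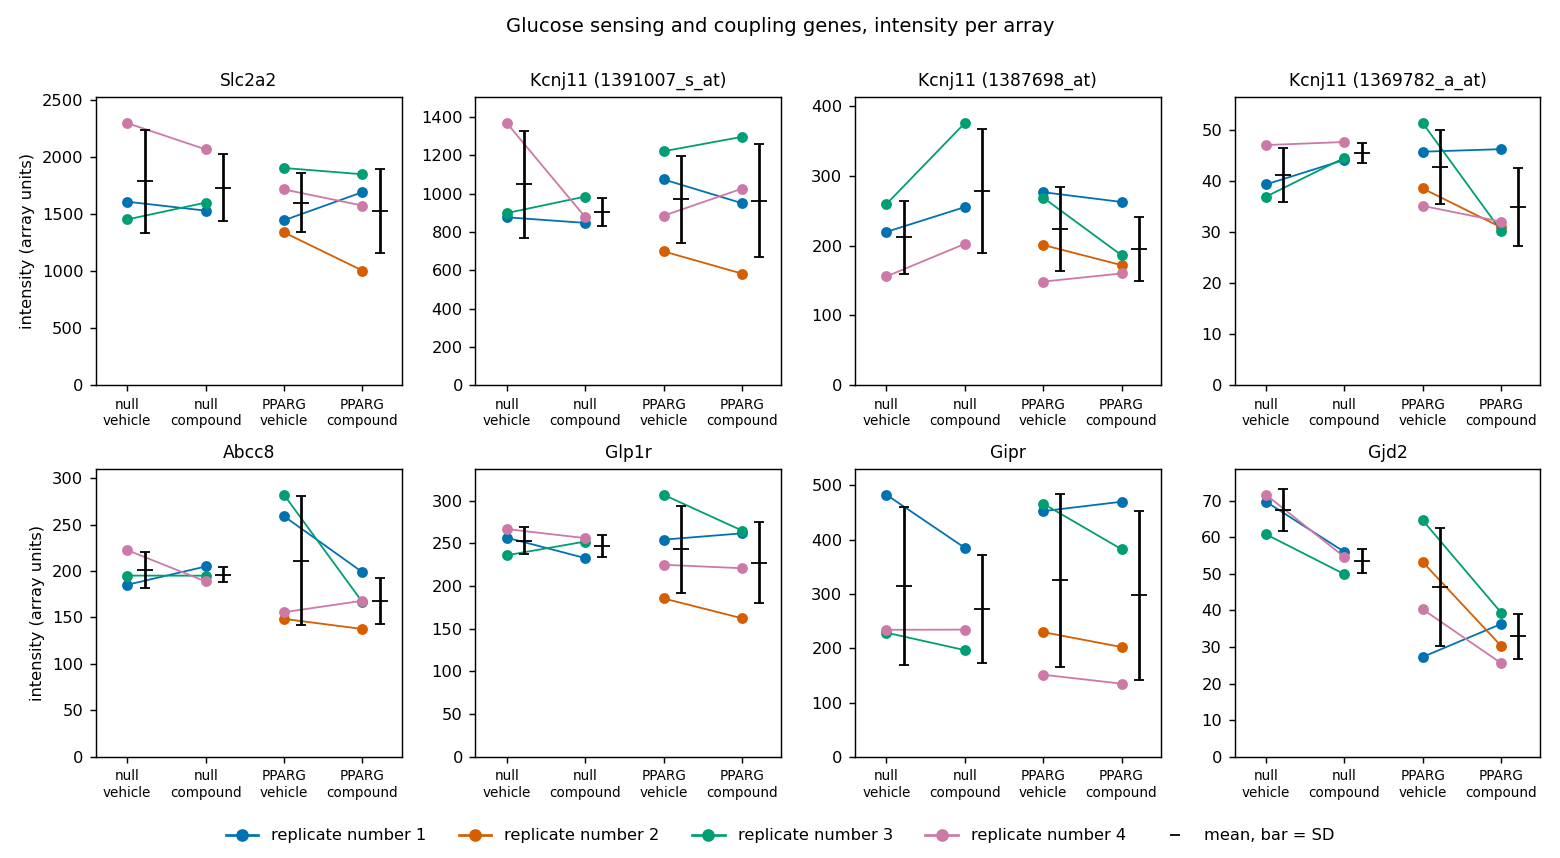
Intensity (array units) of the 8 member probe sets on each of 14 arrays. Lines join vehicle and compound arrays of the same virus and replicate number, and black marks give the group mean with SD. Gjd2 lies between 60.8 and 71.6 with null virus and vehicle and between 25.6 and 39.4 with PPARγ virus and compound, while the arrays of the other probe sets overlap between these groups.

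Gjd2 encodes connexin 36, the gap junction protein of beta cells. Its intensity was 69.7, 60.8 and 71.6 in replicates 1, 3 and 4 of null virus with vehicle, and 56.0, 49.9 and 54.6 in the same replicates with compound. With the PPARγ virus it was 27.3, 53.2, 64.6 and 40.3 in replicates 1 to 4 of the vehicle, and 36.3, 30.3, 39.4 and 25.6 with compound. The 3 control arrays thus stood above every compound array of either virus. The 5 lowest of the 14 arrays were the 4 with both PPARγ and compound and 1 vehicle array of the PPARγ virus. Group means ran from 67.4 ± 5.8 (SD, n = 3) with null virus and vehicle through 53.5 ± 3.2 (SD, n = 3) with null virus and compound and 46.3 ± 16.1 (SD, n = 4) with PPARγ virus and vehicle to 32.9 ± 6.2 (SD, n = 4) with both. In that order, the 2 groups with the highest means did not overlap, whereas the other neighbouring groups did.

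The combined effect on Gjd2 was -0.95 ± 0.23 on the log2 scale (SE, 95% confidence interval -1.44 to -0.47), or 0.517 times the control level. Its adjusted p was 0.0975 (limma) and its exact permutation p was 0.0571, the smallest that 4 arrays against 3 can give (two-sided). All 4 arrays lay below all 3 controls, which was true of 4.89% of tested probe sets. Without replicate 1 of PPARγ virus and vehicle the adjusted p was 0.0250 (limma). That array is in neither group of this contrast. It enters through the shared estimate of the spread and through the set of tested probe sets (9977 without it). Without the other 13 arrays in turn the adjusted p did not pass, reaching 0.338. It was 0.148 when arrays of 1 virus and number were treated as correlated.

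The virus part of this difference was -0.55 ± 0.23 (SE) in vehicle, where the groups overlapped, with an adjusted p of 1.00 (limma) and an exact permutation p of 0.114. In compound it was -0.65 ± 0.23 (SE), with an adjusted p of 0.328 (limma), and every PPARγ virus array lay below every null virus array, as for 5.26% of tested probe sets. Averaged over vehicle and compound it was -0.60 ± 0.16 (SE, 95% confidence interval -0.94 to -0.26), with an adjusted p of 0.0882 (limma). Gjd2 was thus 0.660 times the null virus level on average, a difference that did not pass. Leaving out replicate 3 of PPARγ virus and vehicle, the highest Gjd2 array of its group, gave -0.68 and an adjusted p of 0.0361. Leaving out replicate 1, the lowest of that group, gave -0.50, and moved the difference in vehicle from -0.55 to -0.35. Over all 14 arrays left out in turn, the averaged adjusted p lay between 0.0361 and 0.195. With the random replicate block the adjusted p was 0.527.

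The compound part was smaller. Under the null virus Gjd2 changed by -0.31 ± 0.24 (SE), with each compound array below each vehicle array, as for 2.53% of tested probe sets, and an exact permutation p of 0.10, the smallest that 3 against 3 allow. Under the PPARγ virus the change was -0.40 ± 0.21 (SE), with overlapping arrays, and it was -0.60 without replicate 1 of the vehicle and -0.23 without replicate 3. Within pairs, Gjd2 was lower with compound in 6 of 7, with changes from -17.9% to -43.0%, and higher by 33.0% in replicate 1 of the PPARγ virus. Averaged over viruses the change was -0.35 ± 0.16 (SE), with an adjusted p of 1.00 (0.658 with the pairs as a replicate block) in limma and an exact sign-flip p of 0.0625 over 7 pairs. The interaction was -0.09 ± 0.32 (SE), so the compound's effect on Gjd2 was not shown to differ between viruses, and its interval (-0.78 to 0.59) allows a sizeable difference either way.

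Gjd2 was a dim probe set, above the limit of 39.3 on 10 of 14 arrays, and its fold changes are understated by the offset of 4.6 added before taking logs. Other measures also moved along the same groups. The ratio of the 3′ to the 5′ probe set of beta-actin, a sign of RNA quality, was larger in the compound array than in its vehicle partner in 7 of 7 pairs, by 0.05 to 0.58 on the log2 scale. The same ratio of GAPDH was larger in 4 of 7 pairs, with changes from -0.59 to 0.92. Of the beta cell hormones and transcription factors, 9 of 16 were tested, and 1 passed in the averaged virus contrast: Pdx1, a transcription factor that maintains beta cell identity, fell by 0.52 ± 0.11 on the log2 scale (SE, adjusted p = 0.0313, limma). Its call was lost when any of 9 of the 14 arrays was left out, namely null virus replicates 3 and 4 in vehicle and in compound, PPARγ virus replicates 1, 2 and 4 in vehicle, and PPARγ virus replicates 1 and 2 in compound. The random replicate block, with an adjusted p of 0.142, and median centring, with 0.0860, also ended it. The 9 tested beta cell markers were below 0 in 9 of 9 cases for the virus in compound (median -0.15) and for the combined effect (median -0.16), each against -0.03 over all tested probe sets. Averaged over vehicle and compound, 8 of 9 lay below 0. Medians below 0 were not particular to beta cell markers. For the combined effect, the 7 tested markers of alpha, delta and PP cells had a median of -0.29, with 4 of 7 below 0. The 8 tested leukocyte markers had -0.22, with 5 of 8 below 0. The 10 tested endothelial and stromal markers had 0.01, with 5 of 10 below 0. Summed intensity of the 10 beta cell markers with a probe set, in which the brightest genes weigh most, overlapped between groups (18246 to 22968 in null virus with vehicle, 15637 to 19950 in PPARγ virus with compound), and so did that of the 8 duct markers (6435 to 7880 and 6814 to 7424). Of 7 duct markers tested, 1 passed in the averaged virus contrast: the keratin Krt19 rose by 1.08 ± 0.19 (SE, adjusted p = 0.0086, limma). Of 13 acinar markers, 3 were tested. In the averaged virus contrast 2 of these 3 lay below 0, and the median of the 3 was -0.10. The other was Cela1. Its mean was 60.1 ± 30.6 (SD, n = 3) with null virus and vehicle. With PPARγ virus and compound it was 177.6 ± 124 (SD, n = 4). The averaged virus effect on Cela1 of 1.03 ± 0.42 (SE) did not pass (adjusted p = 0.330, limma). Summed acinar intensity overlapped (186.8 to 555.5 and 267.7 to 589.2). The part of these measures in the Gjd2 values was not tested.

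**Figure D2:**
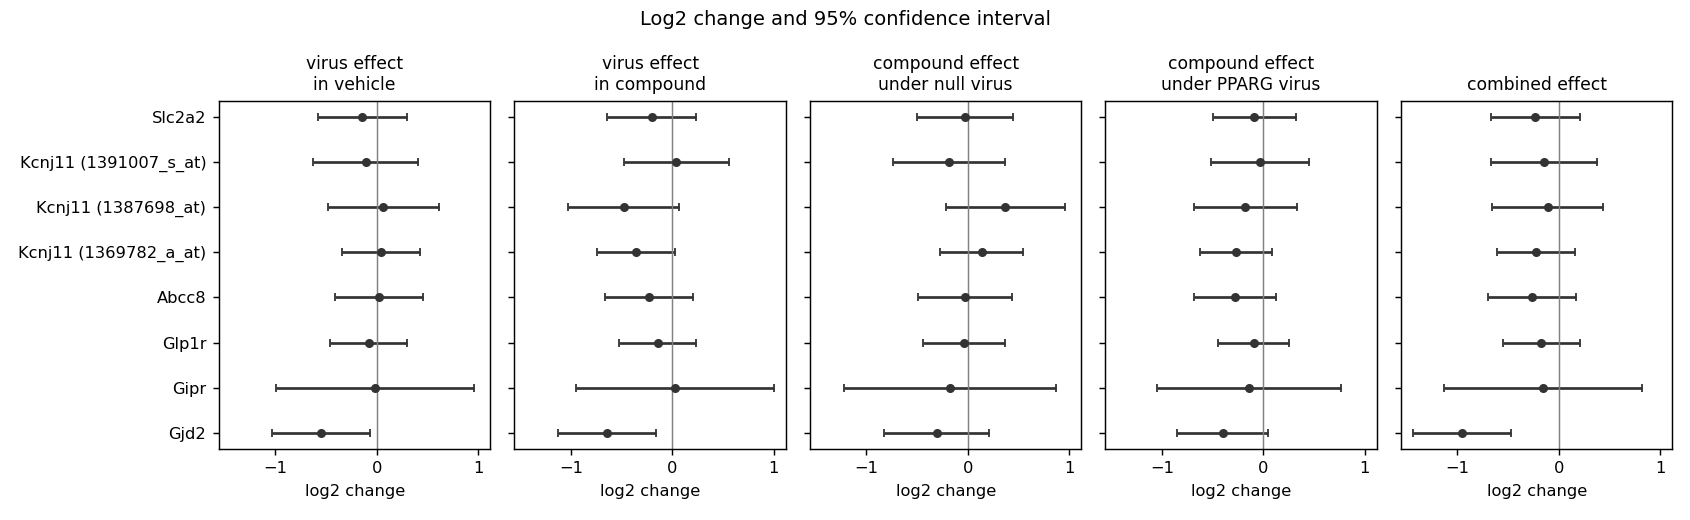
Log2 change (horizontal axis) of the 8 member probe sets in 5 contrasts, with limma's 95% confidence interval as bars. For Gjd2 the interval lies below 0 in both virus contrasts and in the combined effect (-1.44 to -0.47), and for the other 7 probe sets every interval shown includes 0.

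Slc2a2 encodes GLUT2, the glucose transporter of rodent beta cells. It read 1606, 1450 and 2294 in null virus replicates 1, 3 and 4 with vehicle, and 1527, 1598 and 2064 with compound. In the 4 PPARγ virus replicates it read 1443, 1337, 1901 and 1713 with vehicle and 1689, 1003, 1846 and 1572 with compound. All 4 groups overlapped, the highest pair being replicate 4 of the null virus and the lowest replicate 2 of the PPARγ virus. The combined effect was -0.23 ± 0.21 (SE), or 0.852 times with a 95% confidence interval of 0.628 to 1.16, and the averaged virus effect was -0.17 ± 0.15 (SE). Without both arrays of PPARγ virus replicate 2, these values shrank to -0.04 and -0.04. The combined effect was likewise -0.04 without replicate 4 of null virus and vehicle. The compound changed Slc2a2 by -0.06 ± 0.15 (SE) averaged over viruses, with 5 of 7 pairs lower and an exact sign-flip p of 0.484. The 95% confidence interval of that compound effect ran from 0.774 to 1.19 times.

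Kcnj11 encodes Kir6.2, the pore of the ATP-sensitive potassium channel, and had 3 probe sets. The brightest, 1391007_s_at, read 876.3, 898.4 and 1368 in null virus replicates 1, 3 and 4 with vehicle and 847.1, 984.7 and 877.3 with compound. Under PPARγ it read 1074, 698.4, 1221 and 884.6 with vehicle and 950.0, 582.4, 1296 and 1026 with compound. The groups overlapped throughout, replicate 2 of the PPARγ virus was again lowest, and the combined effect was -0.15 ± 0.24 (SE). Without that replicate the combined effect changed sign, to 0.08, and remained small beside its error.

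The other Kcnj11 probe sets did not follow the first one. Probe set 1387698_at read 219.8, 259.7 and 155.9 in null virus replicates 1, 3 and 4 with vehicle and 255.4, 375.8 and 202.6 with compound, so it was higher with compound in 3 of 3 pairs. Under PPARγ it read 276.7, 201.0, 268.9 and 148.5 with vehicle and 262.7, 172.1, 186.3 and 160.2 with compound, lower in 3 of 4 pairs. Its interaction was -0.54 ± 0.36 (SE), with a raw p of 0.154 in limma and, with the pairs as a replicate block, a raw p of 0.0050 and an adjusted p of 0.630. It was -0.34 without replicate 4 of null virus and vehicle and -0.31 without replicate 3 of null virus and compound. The dim probe set 1369782_a_at, between 30.2 and 51.3, had an interaction of -0.40 ± 0.26 (SE), while the brightest had 0.15 ± 0.34 (SE). In the virus contrast in compound the 3 probe sets gave 0.04, -0.48 and -0.36, none of which passed. Over 14 arrays the log2 values of the brightest correlated with those of the other 2 at r = 0.07 and 0.32, and the latter with each other at 0.54. A level of Kcnj11 cannot be read from these probe sets as 1 value, and no direction is given for it.

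Abcc8 encodes SUR1, the sulphonylurea receptor that surrounds the Kir6.2 pore, and its gene lies next to Kcnj11 in the rat gene table. Its intensity was 185.2, 195.1 and 222.5 in null virus replicates 1, 3 and 4 with vehicle and 204.9, 195.0 and 188.8 with compound. Under PPARγ it was 259.0, 148.5, 282.1 and 155.7 with vehicle and 198.8, 137.6, 166.6 and 168.0 with compound. Values were tight under the null virus and spread widely with PPARγ virus and vehicle, where replicates 1 and 3 were the highest of all 14 arrays and replicates 2 and 4 were among the lowest. The compound changed Abcc8 by -0.03 ± 0.22 (SE) under the null virus and by -0.28 ± 0.19 (SE) under the PPARγ virus, with an adjusted p of 1.00 in limma for both. The latter was -0.16, -0.43 and -0.12 without replicates 1, 2 and 3 of PPARγ virus and vehicle, so its size rests on those arrays. With the pairs as a replicate block the change under PPARγ had a raw p of 0.0462 and an adjusted p of 0.557. The combined effect was -0.26 ± 0.20 (SE), or 0.834 times with a 95% confidence interval of 0.617 to 1.13.

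Glp1r and Gipr encode the receptors of the incretin hormones GLP-1 and GIP, both of which raise cyclic AMP. Glp1r read 256.8, 236.2 and 266.9 in null virus replicates 1, 3 and 4 with vehicle and 232.9, 252.3 and 256.3 with compound. With the PPARγ virus it read 254.5, 185.6, 307.1 and 225.1 with vehicle and 261.9, 162.4, 265.2 and 221.0 with compound. The null virus arrays lay within a narrow band, and the 2 lowest of all 14 arrays were those of PPARγ virus replicate 2. The combined effect was -0.18 ± 0.18 (SE), or 0.886 times with a 95% confidence interval of 0.681 to 1.15, and -0.03 without that replicate. Glp1r was the member with the smallest spread of pair differences: compound against vehicle lay between -0.21 and 0.09 on the log2 scale in the 7 pairs.

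Gipr differed far more between replicates than between groups. It read 482.7, 228.7 and 234.0 in null virus replicates 1, 3 and 4 with vehicle and 385.0, 196.5 and 234.3 with compound. With the PPARγ virus it read 452.5, 229.7, 466.4 and 151.2 with vehicle and 469.9, 202.2, 382.4 and 134.8 with compound. The 6 arrays of null virus replicate 1 and PPARγ virus replicates 1 and 3 read 382.4 to 482.7, and the other 8 read 134.8 to 234.3, so both arrays of a pair were always in the same range. Pair means spanned 3.23-fold, from 143.0 to 461.2. On the log2 scale, the SD between pair means within a virus was 0.70, 4.65 times the SD of the pair differences, 0.15. That ratio was between 0.58 and 1.99 for the other 7 member probe sets. The averaged virus effect was 0.00 ± 0.32 (SE), and its 95% confidence interval of 0.622 to 1.62 times shows how little a comparison across replicates can tell here. Within pairs, Gipr was lower with compound in 5 of 7, with changes from -10.8% to -20.2%, and higher by 0.128% and 3.8% in the other pairs. The averaged compound effect was -0.16, with an exact sign-flip p of 0.0625 over pairs and, with the pairs as a replicate block, a raw p of 0.0285 and an adjusted p of 0.679 in limma.

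**Figure D3:**
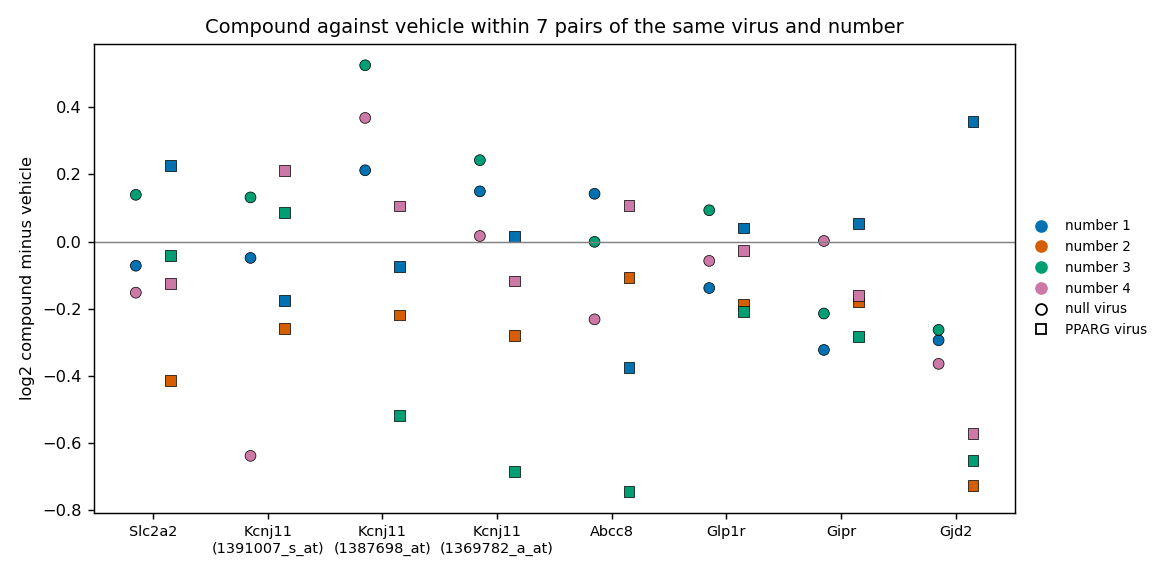
Log2 compound minus vehicle (vertical axis) for each member probe set in the 7 pairs of the same virus and replicate number. Circles are null virus pairs, squares are PPARγ virus pairs and colours give the replicate number. Gjd2 lies below 0 in 6 of 7 pairs and Gipr in 5 of 7, while probe set 1387698_at of Kcnj11 lies above 0 in all 3 null virus pairs and below it in 3 of 4 PPARγ virus pairs.

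The members did not vary together as 1 group. Over 14 arrays, Pearson's r of log2 values between the first probe sets was 0.84 for Kcnj11 and Glp1r, 0.81 for Slc2a2 and Glp1r and 0.79 for Slc2a2 and Kcnj11. Without PPARγ virus replicate 2 these fell to 0.59, 0.51 and 0.54 over 12 arrays. Abcc8 and Glp1r had 0.79 over 14 arrays and kept 0.68 over those 12. Glp1r and Gipr went from 0.53 to 0.64. Over 14 arrays, Gjd2 reached no more than 0.46 with any other member (Slc2a2), and Gipr no more than 0.58 (Abcc8). These correlations, like those in the next paragraph, are descriptions over arrays that share groups, pairs and scaling.

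Genes with the array pattern most like each member differed from member to member. They were picked for the highest r among all other tested genes, so a high r is in part owed to that choice. Slc2a2 was most like Calm2 (a calmodulin gene, r = 0.96), Kcnj15 (another inward rectifier potassium channel, 0.95) and Tspan3 (0.94). The brightest Kcnj11 probe set ran with Pfkm (muscle-type phosphofructokinase, 0.95), Itm2b (0.94) and Prkar1a (a regulatory subunit of protein kinase A, 0.93). The r of that probe set with Ins2 was 0.91 over 14 arrays and 0.83 without PPARγ virus replicate 2. Abcc8 ran with Robo2 (an axon guidance receptor, 0.91), Dgkb (a diacylglycerol kinase, 0.91) and Tmod2 (0.90). Those nearest to Glp1r were Ero1b (a disulphide-forming oxidase of the endoplasmic reticulum, 0.97), Rab3b (a vesicle GTPase, 0.96) and Gnb5 (a G protein beta subunit, 0.96). Its r with Gcg was 0.95 over 14 arrays and 0.79 without PPARγ virus replicate 2. Gipr ran with the long noncoding RNAs Meg3 (0.95) and Snhg11 (0.94) and with Pcbp2 (an RNA-binding protein, 0.94). For Gjd2 the nearest were Klhl8 (0.91), Synpo2 (0.88) and Heatr5a (0.87), and its r with Ins1 and Ins2 was 0.20 and 0.15.

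**Figure D4:**
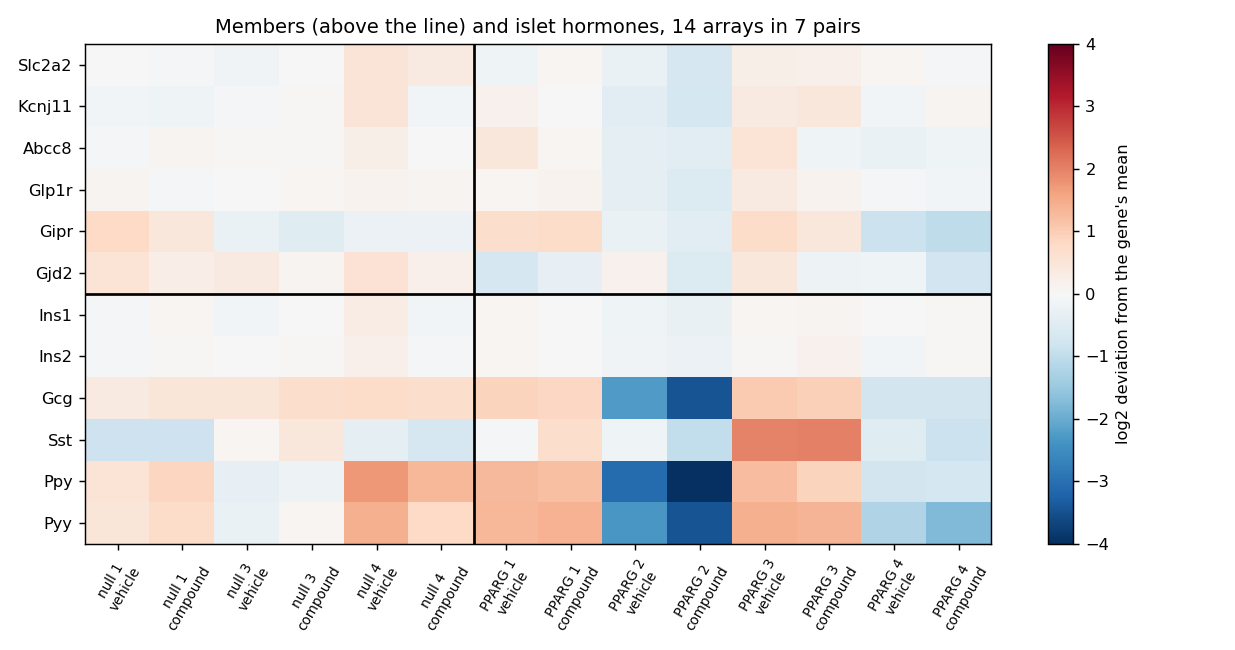
Log2 deviation of each gene from its own mean over 14 arrays (colour), for the first probe set of the 6 measured members (above the line) and 6 islet hormone genes (below). Columns are arrays in pairs of vehicle and compound. Both arrays of PPARγ virus replicate 2 are low in Slc2a2, Kcnj11, Abcc8, Glp1r, Gcg, Ppy and Pyy, and Gipr is high in both arrays of null virus replicate 1 and of PPARγ virus replicates 1 and 3.

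Around the members, 4 lists of other genes of the same steps were read out of the same fit. Of 30 genes of glucose metabolism, 23 were tested and 0 passed in any of the 8 contrasts. The smallest p-values of the virus contrast in compound belonged to Pc, pyruvate carboxylase, with 0.60 ± 0.21 (SE, adjusted p = 0.343, limma), and Slc2a1, the glucose transporter GLUT1, with 0.59 ± 0.22 (SE, adjusted p = 0.359, limma). The list's median change there was 0.13 against -0.03 over all tested probe sets. It was smaller for the virus in vehicle (0.01) and averaged over vehicle and compound (0.06). For the combined effect the list's median was 0.07, with 9 of 23 below 0. Pfkl, liver-type phosphofructokinase, gave 0.54 ± 0.17 (SE, adjusted p = 0.177, limma) averaged over vehicle and compound.

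Of 29 genes of membrane excitability and calcium, 19 were tested and 0 passed in any contrast. In the averaged virus contrast the smallest p-values belonged to Stim1, a calcium sensor of the endoplasmic reticulum, with -0.24 ± 0.10 (SE, adjusted p = 0.335, limma), and Itpr3, an inositol trisphosphate receptor, with -0.31 ± 0.13 (SE, adjusted p = 0.352, limma). For the combined effect, 15 of the 19 were below 0, and the median was -0.10 against -0.03 over all tested probe sets.

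Of 35 genes of other receptors and of cyclic AMP or Gq signalling, 18 were tested and again 0 passed in any contrast. Adcy3, an adenylyl cyclase, came nearest, with -0.69 ± 0.18 (SE, adjusted p = 0.139, limma) in the virus contrast in compound. Prkacb, a catalytic subunit of protein kinase A, followed with -0.40 ± 0.18 (SE, adjusted p = 0.516, limma). The list's median combined effect was -0.16, with 13 of 18 below 0.

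Of 24 genes of junctions and adhesion, 12 were tested, and 1 passed, upward, in each of 3 contrasts. That gene was Efna5, ephrin-A5, a membrane-bound ligand through which neighbouring beta cells signal to each other's Eph receptors. Its intensity was 204.4, 218.7 and 163.5 in null virus replicates 1, 3 and 4 with vehicle and 180.4, 229.1 and 171.3 with compound. With the PPARγ virus it was 242.9, 263.1, 238.5 and 241.9 with vehicle and 320.5, 299.7, 298.3 and 280.7 with compound. All 8 PPARγ virus arrays thus stood above all 6 null virus arrays, as for 0.546% of tested probe sets. Those with compound stood above those with vehicle, as for 0.645%, but that difference of 0.28 ± 0.12 (SE) did not pass (adjusted p = 1.00, limma).

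Efna5 rose by 0.48 ± 0.09 (SE, adjusted p = 0.0126, limma) averaged over vehicle and compound, by 0.63 ± 0.13 (SE, adjusted p = 0.0323, limma) in compound, and by 0.61 ± 0.13 (SE, adjusted p = 0.0391, limma) as the combined effect. In vehicle alone the difference was 0.34 ± 0.13 (SE, adjusted p = 0.936, limma). The averaged call held without each of the 14 arrays in turn and was lost with the random replicate block (adjusted p = 0.0752). That in compound was lost without null virus replicate 1 or 4 or any PPARγ virus replicate of the compound groups, with adjusted p up to 0.199, and at 0.124 when these groups were fitted alone. The combined call held only without null virus replicate 3 or 4 with compound, was lost without each of the other 12 arrays (adjusted p up to 0.211), and was lost with these groups fitted alone (0.142) and with median centring (0.0574). The junction list as a whole had a median combined effect of 0.00, with 6 of 12 below 0, against -0.03 over all tested probe sets.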

How the data were processed

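The authors deposited 1 table of array intensity values on a linear scale, 1 value per probe set and column, with no detection calls. Neither the probe summary software nor the genome build was stated in the sources used here. After trimming 2% at each end all columns shared 1 mean, with medians from 56.4 to 67.5, so the deposited intensities were used without further scaling. Of 16 columns, 14 were used (see the 2 identical ones in the results).

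An offset of 4.6, the 10th percentile of positive values, was added before taking log2. Probe sets above 39.3, the 40th percentile, in at least 4 arrays were tested, 57 control probe sets excepted, which left 10078. The fit of 4 group means used R 4.3.3 and limma 3.58.1 (empirical Bayes, intensity trend), with Benjamini-Hochberg adjustment in each contrast and a threshold of 0.05. The script was tested on simulated data. Exact tests are two-sided, with the smaller one-sided p doubled. Symbols came from the platform annotation, updated by gene identifier. Precision is limited by how many arrays there were.

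Pairs rest on the correlation between vehicle and compound arrays of the same virus and number. Members were named by the rule in the results. From each list, genes past the threshold in a contrast were named, and otherwise up to 2 with the smallest p, of which a selection is printed. For each member, the 3 genes with the highest Pearson's r are given. The brightest probe set of a gene stands first. Members and lists were chosen with earlier results of these data known. Alternatives were other offsets (1 and 16), filters, scalings, blocks, kept columns, groups fitted alone, no intensity trend and each array left out. Leaving out both arrays of PPARγ virus replicate 2 was chosen after seeing the data.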

Additional observations from a re-analysis of the deposited data

Results flagged for a closer look

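In PPARγ virus with compound, replicate 1 of the dim Kcnj11 probe set 1369782_a_at read 46.2, against 30.9, 30.2 and 32.0 in replicates 2 to 4. Its gap to the nearest array was 0.887 of the group's range, above Dixon's critical value of 0.829 for 4 arrays. It was the 1 array that stood apart among 16 groups of 4 checked. Chance flags about 1 in 20 such groups, so 1 flag among 16 is not unusual.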

How the results depend on the processing

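Member probe sets were called in 0 cases under every alternative except 2, both for Gjd2. Leaving out 1 array at a time gave between 0 and 1 called members for the combined effect (1 without replicate 1 of PPARγ virus and vehicle) and between 0 and 1 for the averaged virus effect (1 without replicate 3 of that group). In the other contrasts it gave 0. No replicate block called a member, and the block within each virus changed no member's call: Gjd2 under the PPARγ virus had an adjusted p of 0.541 with it. Of 1784 member values under alternatives, 112 had the other sign, all from values no larger than 0.19 on the log2 scale, and 0 moved by more than the SD within groups. The filter at the 60th percentile kept 6 of 8 member probe sets, without Gjd2 and 1369782_a_at of Kcnj11.

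Counts of called probe sets over the whole array moved more. Across viruses, deviations of arrays of number 1 correlated at r = 0.43 in vehicle and 0.30 in compound. For numbers 3 and 4, r lay between -0.12 and 0.12. A block of numbers over all groups gave 34 in place of 4 (virus in vehicle) and 211 in place of 71 (virus in compound). It gave 414 in place of 154 (averaged) and 177 in place of 67 (combined). It gave 14 in place of 6 (compound under the PPARγ virus) and 5 in place of 2 (compound averaged). For the interaction it gave 3 in place of 0. The random block gave 50 for the averaged virus effect and 42, 16 and 2 for those last 3 contrasts. Fitting 2 groups alone gave 1, 43, 42 and 2 for virus in vehicle, virus in compound, combined and compound under the PPARγ virus. Without both arrays of PPARγ virus replicate 2 the compound called 3 under the PPARγ virus and 1 averaged. Leaving out 1 array at a time gave 3 to 7, 31 to 71, 77 to 134 and 39 to 71 in the 4 virus and combined contrasts, and 2 to 7 and 1 to 4 in the last-named 2. With no detection calls, dim probe sets such as that of Gjd2 cannot be set against their own background.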
